A study of Mus musculus with 6 samples.

Results

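Phosphatidylserine receptors and their bridging molecules were examined in peritoneal macrophages (PEMs) of mice with and without Tim-4 in myeloid cells. The set holds 10 named genes, and all 10 were found by symbol among the 15415 genes of the deposited table. They are the receptors *Timd4* (Entrez 276891), *Havcr2* (171285), *Mertk* (17289), *Axl* (26362), *Stab1* (192187), *Cd300lf* (246746) and *Itgav* (16410), and the soluble bridges *Gas6* (14456), *Pros1* (19128) and *Mfge8* (17304). RNA was sequenced in 3 libraries titled PEM-CKO (knockout), whose mice were *Tim-4* fl/fl with LysM-Cre, and in 3 titled PEM-Control (control), whose mice were *Tim-4* fl/fl alone. The floxed alleles are thus shared by all libraries, and by the methods the mice were C57BL/6J males of 6 to 8 weeks. Cre sits in the lysozyme gene *Lyz2*, so it is active in myeloid cells at large and not in macrophages alone, and the control mice carried no Cre. The methods describe PEMs collected 3 days after an injection of 6% starch, and activation by LPS at 1 μg/ml for 3.5 hours. LPS is the labelled treatment of every library, while the genotype field is reversed against the titles (it calls the PEM-CKO libraries wild type), so the titles were used. *Timd4* was lower in each library titled PEM-CKO than in any titled PEM-Control. Neither the labels nor the methods say whether each library came from its own mouse, so the p-values measure the spread between these libraries, which may be partly technical.

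A dying cell turns phosphatidylserine (PS) to its outer surface, and phagocytes recognise this lipid in order to engulf the cell, a process called efferocytosis. Some receptors, such as the TIM and CD300 proteins and stabilin-1, bind PS themselves. Others bind it through a soluble bridge: GAS6 and protein S link PS to the TAM kinases MERTK and AXL, and MFG-E8 links it to integrins that contain the αV chain. Tim-4 is commonly described as a tether without a signalling tail of its own, and among peritoneal macrophages it is best known from the large resident population. The paper of these data reports that Tim-4 binds the kinase subunit CK2β in PEMs, and concludes that this restrains the inflammatory NF-κB pathway.

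The libraries held between 36170767 and 42217558 reads on the listed genes. Of the macrophage markers, *Cd68* was abundant throughout, between 816 and 1685 FPKM, where FPKM counts reads per length of the gene and per depth of the library. Not all were: *Fcgr1* was at 5.16 to 6.58 FPKM in the controls. Within a group the log2 values of the tested genes correlated at 0.986 to 0.992 among the knockout libraries and at 0.948 to 0.983 among the controls, where control library 3 stood furthest from the others. The Cre-carrying gene *Lyz2* was at 41.4, 4656 and 106 FPKM in the knockouts, against 7090, 7171 and 8482 in the controls (each in the order of libraries 1, 2 and 3, as throughout), so knockout library 2 stood far above the other knockout libraries. Leaving it out kept the direction of all 9 tested genes of the set and is given where it changed a call. Tim-4 loss, Cre and the lower *Lyz2* separate the same groups, so their parts in any difference cannot be told apart.

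Across the 10 genes, the knockout libraries had a lower mean of *Timd4* and *Pros1* and a higher mean of the other 8, and *Mfge8* and *Cd300lf* rose past the threshold. The comparison used limma on log2(FPKM + 1) for the 9030 genes that reached a mean of 1 FPKM in either group, with Benjamini-Hochberg adjustment over all of them. The pseudocount of 1 makes the differences of low genes smaller than they are. Of the 10 genes, 9 were tested, and *Havcr2* stayed just below the filter. Higher expression in the knockout libraries passed an adjusted p of 0.05 in 2 of the 9, against 2.57% of all tested genes. Lower expression passed in 0 of the 9 in limma, as with voom on whole reads recovered from the FPKM (1 had an unadjusted p below 0.05, *Timd4*), against 4.74% of all, and calls in either direction made up 7.31% of all tested genes. With the replicate number as a block in the limma fit the count was 4 of 9, with *Axl* higher and *Timd4* lower as well, against 9.47% of all. No label says what a shared replicate number marks, so calls that need this block, here and below, rest on an assumed pairing. The differences of the 9 tested genes had a median of 1.01 on the log2 scale, while that of all tested genes was -0.11. In 3 of the 9 (*Gas6*, *Mfge8* and *Cd300lf*) every knockout library lay above every control library, as in 11.1% of all tested genes. *Timd4* alone had every knockout library below every control library, as in 23% of all. In the other 5 the groups overlapped.

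**Figure D1:**
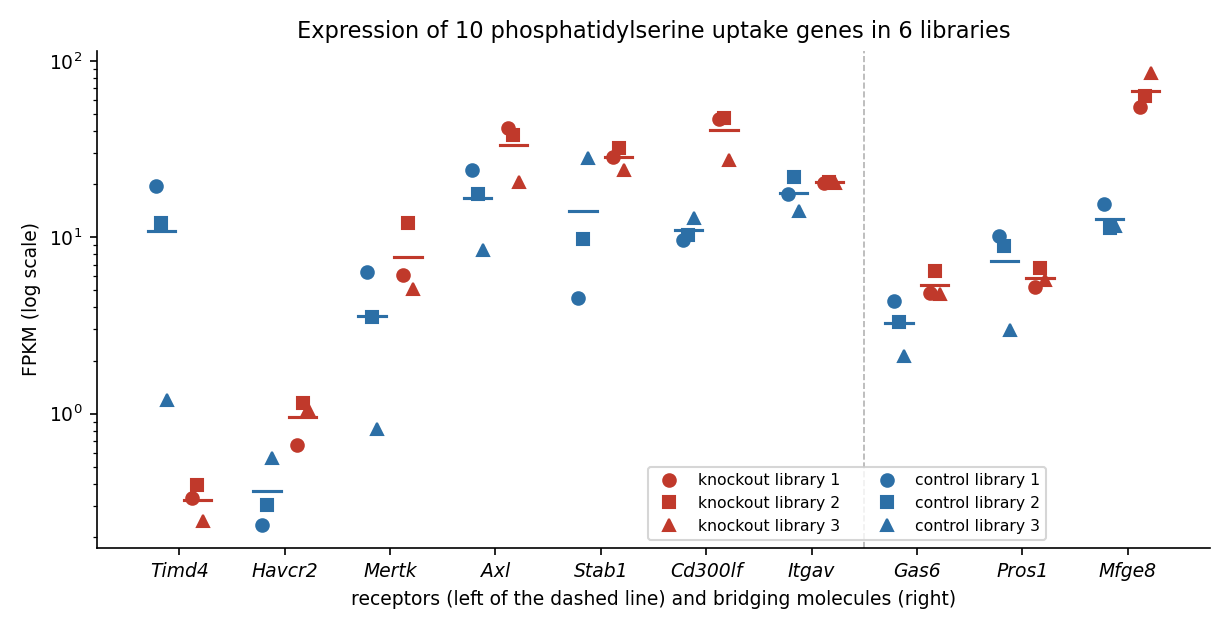
FPKM of the 10 genes on a log axis, with 1 symbol per library (circle, square and triangle for libraries 1, 2 and 3), controls in blue, knockouts in red and group means as bars. Timd4 lies lower in every knockout library than in any control, Mfge8 and Cd300lf stand above all controls, and the triangle of control library 3 is far from the other controls in Timd4, Mertk, Pros1 and Stab1.

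*Timd4*, the gene of the tethering receptor Tim-4, was counted with 32, 38 and 23 reads in the knockouts, against 1760, 1071 and 98 in the controls. In FPKM these were 0.333, 0.394 and 0.246 against 19.5, 12.0 and 1.19. The knockout libraries thus lay close together, while the controls spread over a 16.5-fold range and control library 3 came nearer to the knockouts than to the other controls. The mean of the controls was 33.6 times that of the knockouts. The log2 difference was -2.66 (standard error 0.74, 95% interval -4.40 to -0.92), with an adjusted p of 0.0715 from limma, which missed the threshold. The replicate block brought it past the threshold (adjusted p = 0.0436 from limma), as did a fit without control library 3 (log2 difference -3.63, adjusted p = 0.000405 from limma). The floxed segment runs from intron 1 to intron 3. In the GENCODE M21 annotation the only *Timd4* transcript has 9 exons and 2173 bases, and exons 2 and 3 hold 576 of these (26.5%). A value per gene therefore counts reads from the remaining exons too, and cannot tell a shortened transcript from an intact one. The deleted 26.5% stands beside a 33.6-fold difference of the means, and the part of the deletion in that difference was not tested.

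The promoter of *Timd4* lies upstream of the deleted segment, so it is shared by both genotypes. It is shown here with the promoters of *Mfge8* and *Cd300lf*, the genes that rose, as the 250 bases before the RefSeq start (GRCm38.p6), 5′ to 3′ on the strand of the gene. *Timd4* is at chr11:46810549-46810798 (plus strand), *Mfge8* at chr7:79149061-79149310 (minus strand) and *Cd300lf* at chr11:115133993-115134242 (minus strand). Capitals mark every match, on either strand, to the PU.1-IRF composite element, to GAGGAA (a PU.1-type site) or to GGGCGG (a GC box).
Timd4: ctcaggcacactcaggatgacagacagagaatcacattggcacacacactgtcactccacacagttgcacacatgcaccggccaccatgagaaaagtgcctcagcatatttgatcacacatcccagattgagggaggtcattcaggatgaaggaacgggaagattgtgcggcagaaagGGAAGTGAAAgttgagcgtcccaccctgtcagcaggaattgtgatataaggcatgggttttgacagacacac
Mfge8: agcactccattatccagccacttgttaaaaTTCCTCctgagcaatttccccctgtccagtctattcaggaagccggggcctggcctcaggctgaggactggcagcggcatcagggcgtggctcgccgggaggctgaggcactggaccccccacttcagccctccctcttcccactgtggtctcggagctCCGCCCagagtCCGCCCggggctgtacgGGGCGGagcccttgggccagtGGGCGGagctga
Cd300lf: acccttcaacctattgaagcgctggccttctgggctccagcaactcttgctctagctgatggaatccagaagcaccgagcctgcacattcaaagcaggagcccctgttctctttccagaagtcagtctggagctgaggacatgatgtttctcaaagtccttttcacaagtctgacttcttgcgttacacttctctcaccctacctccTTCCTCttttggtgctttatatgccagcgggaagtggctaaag
The capitals in *Timd4* are the composite motif, which 2.38% of 27025 promoters of this length hold and which none of the other 9 genes has. Those in *Mfge8* are GAGGAA, once, and the GC box, 4 times, and those in *Cd300lf* are GAGGAA, once. GAGGAA was in 6 of the 10 promoters (23.1% of all promoters) and the GC box in 5 (32.9%). The IRF-type interferon element was in 0 of the 10 (3.04% of all promoters). These are letter matches and not measured binding.

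Since the knockout removes Tim-4 from myeloid cells only, *Timd4* was read beside markers of the cells in the samples. Of 7 tested markers of large peritoneal macrophages, 5 fell in the knockout libraries and 2 did not pass, where 4.74% of all tested genes fell. *Cd5l*, a secreted protein of resident macrophages, was at 6.17, 12.8 and 6.21 FPKM in the knockouts and at 101, 79.7 and 54.5 in the controls (log2 difference -3.10, adjusted p = 0.00651 from limma). *Gata6*, the defining transcription factor of these cells, stayed under the filter, at 0.158, 0.780 and 0.273 FPKM against 1.07, 1.01 and 0.117. The sum over all 10 listed markers did not separate the groups, at 391 to 499 FPKM against 437 to 579, since *Cd9*, a tetraspanin of many cell types, made up most of it. Of 6 tested B cell markers, 5 fell (3 after rescaling to the median of ratios), and the summed level of the list was 11.0 to 11.9 FPKM in the knockouts and 125, 85.8 and 32.9 in control libraries 1 to 3. Control library 3 was thus the lowest control in *Timd4*, *Gata6*, *Cd5l* and the B cell sum alike. In bulk RNA, fewer cells of a type and less RNA per cell cannot be told apart, and the part of these cells in the *Timd4* values was not tested.

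**Figure D2:**
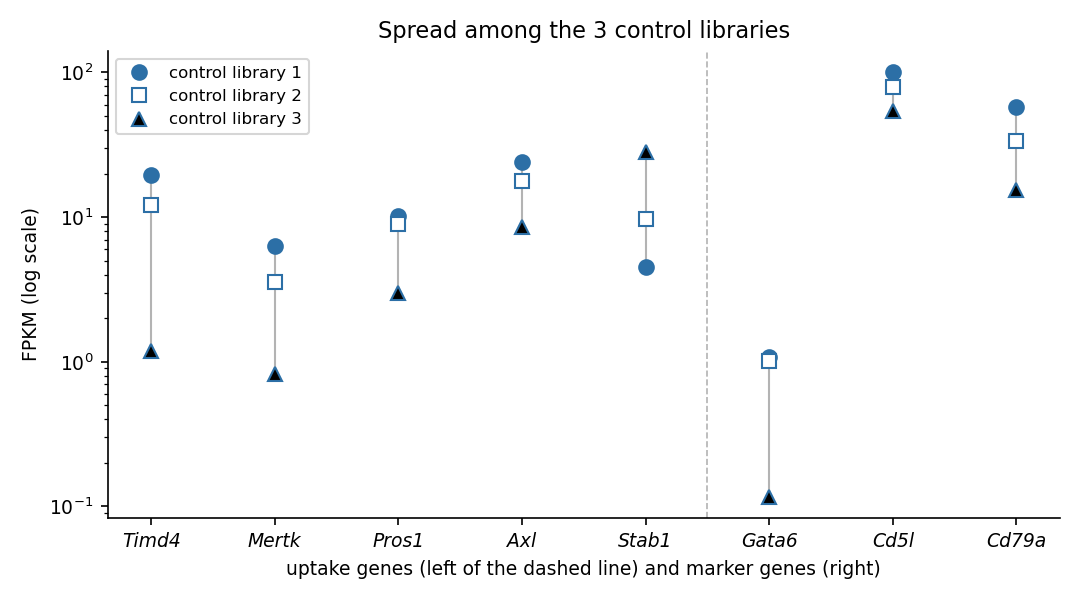
FPKM of 5 uptake genes and 3 marker genes in the 3 control libraries on a log axis, with a line from the lowest to the highest. Control library 3 (black triangle) is lowest in all but Stab1, in which it is highest.

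Over the 6 libraries, the genes most like *Timd4* among 5459 others with a mean of at least 5 FPKM were *Chil3*, a chitinase-like protein of alternatively activated macrophages (Pearson r of log2 values 0.996), *Pla2g4a* (0.991), *Xbp1* (0.987), the B cell gene *Ms4a1* (0.985) and *Slc7a2* (0.984). *Chil3* was at 63.8, 78.3 and 45.4 FPKM in the knockouts and at 2991, 2094 and 144 in the controls, with the same low value in control library 3. These correlations span both groups and describe 6 points only.

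*Havcr2* encodes TIM-3, a TIM family receptor that macrophages and T cells carry. Its level was 0.664, 1.15 and 1.07 FPKM in the knockouts (76, 132 and 119 reads), against 0.232, 0.302 and 0.558 in the controls (25, 32 and 55 reads). Every knockout library lay above every control library, but the level stayed near 1 FPKM. In the fit without the filter the log2 difference was 0.52 (standard error 0.13, adjusted p = 0.0918 from limma). Of the 7 listed T cell markers 2 were tested, of which 1 fell (*Cd2*) and 1 did not pass (*Lck*), and the sum of the 7 was lower in the knockouts (1.19 to 1.89 FPKM against 2.81 to 11.1).

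Neither TAM receptor that could be tested passed the threshold, and in both the groups overlapped. *Mertk*, the receptor kinase that resident macrophages rely on for uptake, was at 6.15, 12.1 and 5.08 FPKM in the knockouts and at 6.36, 3.55 and 0.821 in the controls. Control library 1 lay above both lower knockout libraries. The log2 difference was 1.07 (standard error 0.52, 95% interval -0.14 to 2.29, adjusted p = 0.223 from limma), and it was 0.52 when control library 3 was left out. *Axl*, the TAM kinase that inflammation and interferon induce, was at 41.9, 38.3 and 20.6 FPKM against 24.1, 17.7 and 8.53. Control library 1 exceeded knockout library 3, the single crossing of the groups. The log2 difference was 1.01 (standard error 0.40, 95% interval 0.07 to 1.94, adjusted p = 0.159 from limma), and with the replicate block *Axl* passed (adjusted p = 0.0198 from limma). Leaving out control library 3 lowered the difference to 0.61, which did not pass (adjusted p = 0.226). The ratio of *Axl* to *Mertk* within a library, which no scaling changes, was 6.81, 3.16 and 4.05 in the knockouts and 3.79, 4.99 and 10.4 in the controls (exact permutation p = 0.6, two-sided). The third TAM receptor, *Tyro3*, stayed below 0.1 FPKM in all 6 libraries.
Interferon-stimulated genes were read beside *Axl*. All 14 tested genes of that list, and 3297 of all 9030 tested genes, had higher mean log2 values in the knockouts. The median log2 difference of the 14 was 1.14. Of these 1 passed the threshold (0 after the rescaling), and 7 passed with the replicate block. Their summed level was 10650, 11776 and 7620 FPKM in the knockouts, against 6270, 5211 and 2023 in the controls, so knockout library 3 was lowest of its group and control library 3 lowest of all, as in *Axl*. The part of interferon in the *Axl* values was not tested.

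*Stab1*, the scavenger-type receptor stabilin-1, was at 28.6, 32.3 and 24.2 FPKM in the knockouts, against 4.53, 9.76 and 28.2 in the controls. Control library 3 lay within the knockout range, and the other controls lay far below it. The log2 difference of 1.28 (standard error 0.54, 95% interval 0.02 to 2.54) did not pass (adjusted p = 0.175 from limma). It rested on the controls in use: leaving out control library 3 gave 1.92, which passed (adjusted p = 0.00765), and leaving out control library 1 gave 0.72, which did not (adjusted p = 0.244).

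*Cd300lf*, which encodes a CD300 receptor that binds PS and carries inhibitory motifs, rose in the knockout libraries. Its values were 47.2, 47.8 and 27.4 FPKM against 9.71, 10.3 and 12.9, so the lowest knockout library lay well above the highest control. The log2 difference was 1.77 (standard error 0.24, 95% interval 1.22 to 2.32, adjusted p = 0.0118 from limma). Leaving out knockout library 1, knockout library 2 or control library 2 raised the adjusted p to 0.0598, 0.0542 and 0.0878, while the log2 difference stayed between 1.64 and 2.03 with any 1 library left out.

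*Itgav*, the αV integrin chain that receives MFG-E8, was close to constant in the knockouts, at 20.4, 20.7 and 20.5 FPKM, and spread more in the controls, at 17.6, 22.0 and 14.0. The knockout values lay inside the control range. The log2 difference was 0.21 (95% interval -0.19 to 0.61, adjusted p = 0.454 from limma), and it was 0.06 and 0.36 when control library 3 or control library 2 was left out. Of the β chains that pair with it, the list held *Itgb5* and *Itgb3*, both lower in mean FPKM. *Itgb5* (β5) rose, from 3.63, 3.71 and 4.40 FPKM in the controls to 10.3, 12.1 and 10.2 (log2 difference 1.28, adjusted p = 0.00651 from limma). *Itgb3* (β3) was below the filter, at 0.545 to 1.07 FPKM in the knockouts and 0.128 to 0.267 in the controls.

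**Figure D3:**
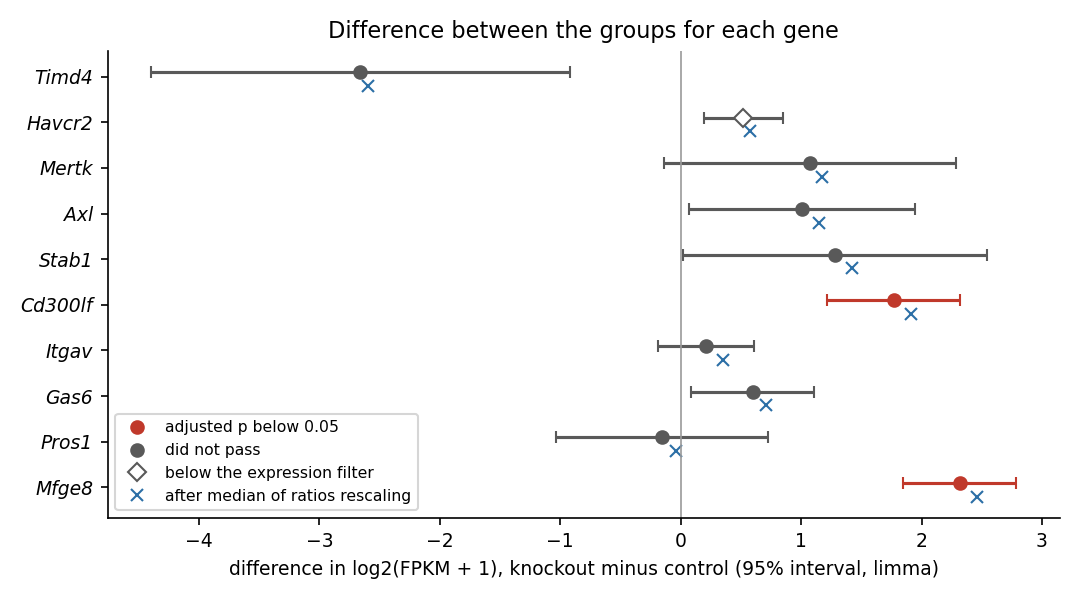
Difference in log2(FPKM + 1) between knockout and control libraries for each gene, with the 95% interval from limma (3 libraries per group), and the value after rescaling by the median of ratios as a cross. Mfge8 and Cd300lf (red) passed an adjusted p of 0.05. Havcr2 (open) is from the fit without the filter.

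Among the bridges, *Gas6*, a ligand of the TAM receptors, was at 4.85, 6.41 and 4.74 FPKM in the knockouts and at 4.34, 3.31 and 2.12 in the controls. The groups did not overlap, but the gap between them was small beside the spread of each, and the log2 difference of 0.60 did not pass (standard error 0.22, 95% interval 0.09 to 1.11, adjusted p = 0.133 from limma) and was 0.39 without control library 3. *Pros1*, the gene of protein S, which also acts as an anticoagulant in plasma, was at 5.20, 6.71 and 5.70 FPKM against 10.2, 8.99 and 2.97. Control libraries 1 and 2 lay above all knockouts and control library 3 below them all. Its log2 difference was -0.16 (95% interval -1.04 to 0.72, adjusted p = 0.814 from limma). Leaving out control library 3 gave -0.63, which passed (adjusted p = 0.0337 from limma). Its sign turned when control library 1 (0.12) or control library 2 (0.04) was left out. The ratio of *Gas6* to *Pros1* was 0.934, 0.956 and 0.832 in the knockouts and 0.426, 0.368 and 0.715 in the controls. These ratios did not overlap (exact permutation p = 0.1, two-sided, the smallest that 3 against 3 allow).

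*Mfge8*, the gene of MFG-E8, had the largest increase of the 10 genes. Its level was 55.2, 63.7 and 85.2 FPKM in the knockouts (4937, 5717 and 7418 reads), against 15.5, 11.3 and 11.5 in the controls (1297, 933 and 887 reads). Unlike in *Timd4*, the controls were close together, within a 1.37-fold range. The mean was 5.34 times that of the controls. The log2 difference was 2.32 (standard error 0.20, 95% interval 1.85 to 2.79, adjusted p = 0.00494 from limma). It stayed between 2.15 and 2.45 with any 1 library left out, and without control library 2 the adjusted p was 0.0549. The ratio of *Mfge8* to *Itgav* went from 0.512 to 0.880 in the controls to 2.71 to 4.16 in the knockouts. Transcripts of mesothelial cells and fibroblasts were low but had higher mean log2 values in the knockouts in 5 of 5 tested markers (*Dcn* and *Col1a2* the most abundant). Such higher values were found in 3297 of all 9030 tested genes. Of the 5 markers, 0 passed in limma or with voom, 2 had an unadjusted p below 0.05, and 2 passed with the replicate block. The sum over all 10 listed markers was 13.6, 35.7 and 16.1 FPKM against 2.14, 6.78 and 16.0, and the part of these cells in the *Mfge8* values was not tested. The genes most like *Mfge8* over the 6 libraries were *C3ar1* (the receptor of complement C3a, r = 0.987), *Pole3* (0.986), the ATP-gated channel *P2rx4* (0.981), the coagulation factor gene *F7* (0.979) and *Fibp* (0.976). Here too the correlations span both groups and describe 6 points only. *Pole3* and *Fibp* did not pass the threshold (adjusted p = 0.0832 and 0.203 from limma), while the other genes named did.

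Set in order of level, the controls gave *Itgav*, *Axl*, *Stab1*, *Mfge8*, *Cd300lf*, *Timd4*, *Pros1*, *Mertk*, *Gas6* and *Havcr2*, and every neighbour in this order overlapped with the next except *Gas6* and *Havcr2*. In the knockouts the order was *Mfge8*, *Cd300lf*, *Axl*, *Stab1*, *Itgav*, *Mertk*, *Pros1*, *Gas6*, *Havcr2* and *Timd4*. There *Mfge8* lay clear of *Cd300lf*, *Stab1* of *Itgav*, *Itgav* of *Mertk*, *Gas6* of *Havcr2*, and *Havcr2* of *Timd4*. *Timd4* made up 23.8% and 15.9% of the summed FPKM of the 7 receptor genes in control libraries 1 and 2, 1.79% in control library 3, and 0.230% to 0.258% in the knockouts. The other 6 receptors summed to 62.5, 63.6 and 65.1 FPKM in the controls, a narrow range in spite of the opposite moves of *Stab1* and *Axl* in control library 3. In the knockouts they summed to 145, 152 and 98.9 FPKM, on average 2.07 times the control level (exact permutation p = 0.1, two-sided). The 3 bridges summed to 65.3, 76.8 and 95.7 FPKM in the knockouts and to 30.0, 23.6 and 16.6 in the controls. *Mfge8* made up 82.9% to 89.1% of that sum in the knockouts and 47.8% to 69.4% in the controls.

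**Figure D4:**
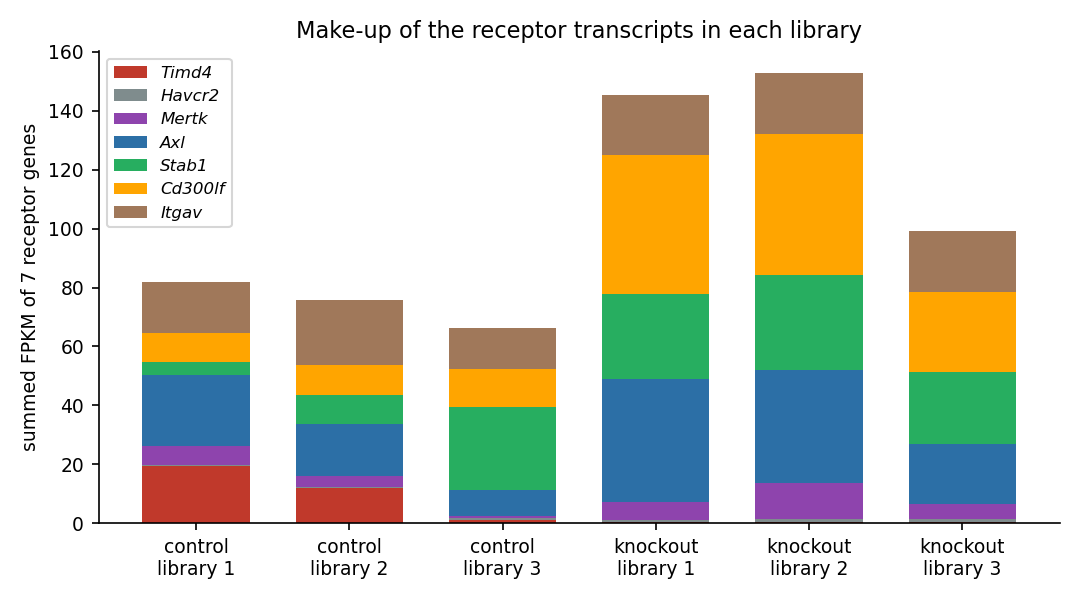
Summed FPKM of the 7 receptor genes in each library, with bars divided by gene. Timd4 (red) is a sizeable share in control libraries 1 and 2 only, and of the larger segments that of Cd300lf is higher in every knockout library than in any control, while those of Stab1 and Axl overlap between the groups.

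Beyond these genes, a wider list of 87 efferocytosis genes was described by role, of which 85 were listed and 75 tested. Leaving the 10 genes aside, 66 were tested. Of these 7 rose, 4 fell and 55 did not pass, where 2.57% of all tested genes rose and 4.74% fell, with a median log2 difference of 0.04 against -0.11 over all genes. The list was chosen with earlier results of these data known, so these shares describe it and test nothing. The 4 that fell (*Thbs1*, *S1pr1*, *Ppard* and *Mylip*) missed the threshold without knockout library 1, knockout library 2 or control library 2 (adjusted p 0.0516 to 0.176), fits in which 30, 63 and 8 genes were called in all. The 7 that rose missed it too without knockout library 1 (adjusted p 0.0502 to 0.152 from limma) or control library 2 (0.0678 to 0.162). Without knockout library 2, *Nr1h3*, *Abcg1* and *P2ry6* missed it as well (0.150 to 0.180), while the other genes that rose passed. In the fit without the filter *Thbs1*, *P2ry6*, *Nr1h3*, *Abcg1* and *Mylip* did not pass (adjusted p 0.0598 to 0.0817). *Havcr1*, a TIM family gene of the list, was called lower in that fit (adjusted p = 0.0206 from limma), at 13 reads or fewer per library. All p-values in the next lines are adjusted and from limma.
Among the other receptors, *Trem2*, a lipid receptor of macrophages, rose from 68.2, 63.2 and 76.0 FPKM in the controls to 190, 235 and 162 (log2 difference 1.47, adjusted p = 0.00913), and *Itgb5* was described above. The remaining 5 of 7 tested did not pass, of which *Lrp1*, a scavenging receptor of the LDL receptor family (log2 difference 0.82, adjusted p = 0.0818), passed after the rescaling by the median of ratios (adjusted p = 0.0481). *Stab2* and *Megf10* were not among the listed genes, and *Adgrb1*, the gene of the PS receptor BAI1, stayed at 0.0159 FPKM or less.
Of the other bridges and opsonins, *Anxa1*, the PS-binding annexin A1, rose (log2 difference 1.30, adjusted p = 0.0124), and *Thbs1*, the gene of thrombospondin 1, which bridges dying cells to CD36, fell by 1.10 (adjusted p = 0.0426). The chains of C1q did not pass.
In the group of nuclear receptors and lipid export, 3 of 13 rose and 2 fell, and with the replicate block *Maf* rose as well (log2 difference 1.28, adjusted p = 0.0492). Those that rose were *Apoe* (log2 difference 1.39, adjusted p = 0.00981), the LXRα gene *Nr1h3* (0.98, adjusted p = 0.0320) and the cholesterol exporter *Abcg1* (0.57, adjusted p = 0.0345). *Ppard*, a nuclear receptor of fatty acids, fell by 1.65 (adjusted p = 0.0147), and *Mylip*, which marks lipoprotein receptors for breakdown, fell by 0.84 (adjusted p = 0.0325). The LXR target *Abca1* was at 12.6, 13.2 and 27.9 FPKM against 10.8, 13.1 and 14.5 and did not pass (adjusted p = 0.451).
Of the 7 tested receptors for find-me and do-not-eat-me signals, the nucleotide receptor *P2ry6* rose (log2 difference 0.92, adjusted p = 0.0443, and 0.0516 with voom) and the sphingosine 1-phosphate receptor *S1pr1* fell by 1.76 (adjusted p = 0.0130), from 5.32 to 6.36 FPKM in the controls to 0.516 to 2.02 in the knockouts. The other 5 did not pass, of which *Pecam1* did, on the lower side, with the replicate block (adjusted p = 0.0442).
In the remaining groups of the list no gene passed in limma or with voom, although *Lamp1* passed after the rescaling by the median of ratios (adjusted p = 0.0417). This held for 13 engulfment genes (*Rhoa*, log2 difference -0.16, and *Rhog*, 0.04), 12 genes of phagosome maturation and digestion (*Lamp1*, 0.51, adjusted p = 0.0617, and *Cybb*, -0.37), both shedding proteases (*Adam17*, 0.04, and *Adam10*, -0.38) and 7 genes of PS exposure (*Tmem30a*, -0.38, and *Ano6*, 0.01). An unadjusted p below 0.05 was reached by 0, 3, 0 and 1 of these genes, group by group. The median log2 differences of the engulfment and phagosome groups were 0.01 and -0.08.

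**Figure D5:**
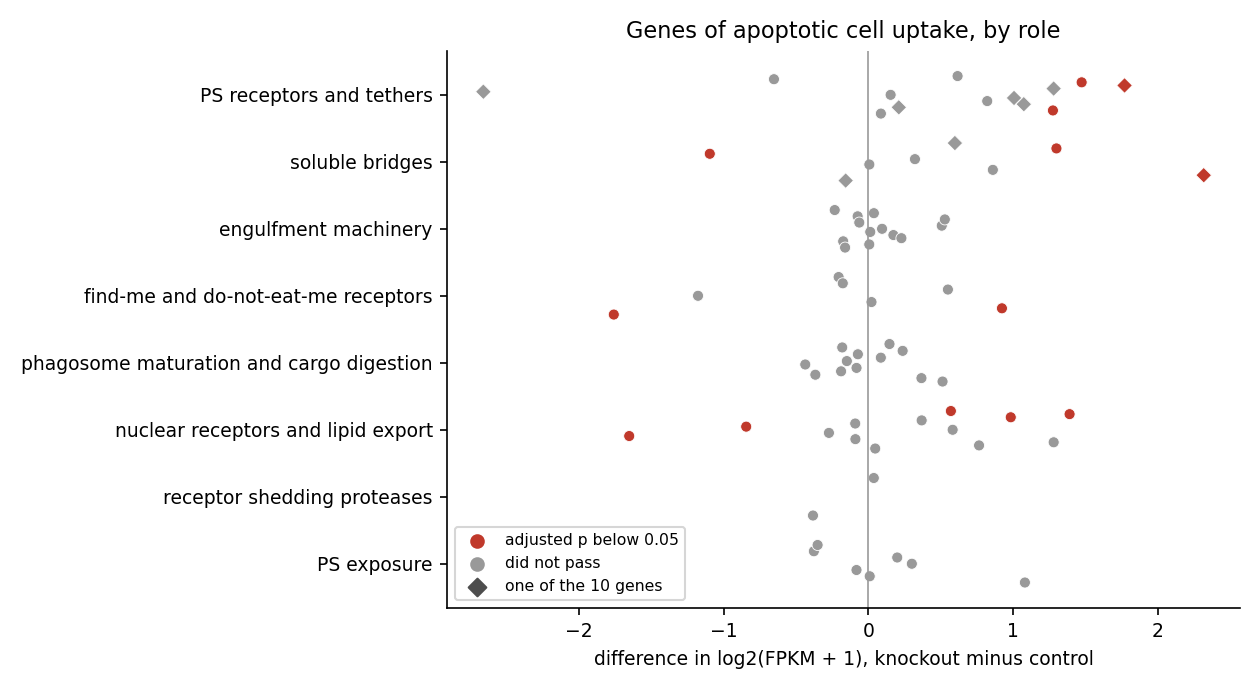
Difference in log2(FPKM + 1) for the 75 tested genes of apoptotic cell uptake, grouped by role, with 1 point per gene, red where the adjusted p was below 0.05 and diamonds for the genes named at the start. Red points occur among receptors, bridges, signal receptors and lipid genes, and none among engulfment, digestion, shedding or PS exposure genes.

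Markers of other cells differed between the groups as well, where 2.57% of all tested genes rose and 4.74% fell. Of 5 tested mast cell markers all 5 fell (4 with the replicate block), with the summed level of the whole list at 1.89 to 2.27 FPKM in the knockouts and 38.2 to 49.3 in the controls (*Tpsb2*, log2 difference -3.26, and *Cma1*, -2.93). Of 5 tested neutrophil markers 1 fell (*S100a8*, -1.58), and with the replicate block *Retnlg* did as well (adjusted p = 0.0437 from limma), while *Mmp8* overlapped between the groups, at 29.2 to 127.5 FPKM against 19.5 to 294. Of 10 tested markers of small and monocyte-derived macrophages 1 rose and 2 fell, among them *Retnla*, at 8.71, 8.62 and 15.0 FPKM against 3428, 1507 and 98.5, while *Cd74* did not pass. Of 9 macrophage markers 1 rose, the high-affinity Fc receptor gene *Fcgr1* (log2 difference 2.82, adjusted p = 0.00150 from limma), and 8 did not pass. No listed marker was at 0 in all libraries. The part of these cells in the values of the 10 genes was not tested.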

How the data were processed

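The authors deposited 1 table for the series, with FPKM per gene and library and, as a signal, the mean read count per group divided by DESeq2 size factors. Its fold changes, p-values and q-values are the authors' comparison and were not used. Genes with a mean at or below 1 in that signal are not listed. The header names no unit, and the FPKM values together with the group means gave back whole reads (within 0.01 of a read) for 100% of values in each library. The submitters' processing notes name mm9, and the aligner and annotation are not given in the sources used here. All 6 per-library columns were used.

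Log2(FPKM + 1) was fitted with limma 3.58.1 (empirical Bayes, intensity trend; R 4.3.3) for genes with a mean of at least 1 FPKM in either group, and checked on simulated reads. Alternatives were no filter, at least 10 reads in every library, a pseudocount of 0.1, the replicate number as a block, each library left out, voom with the whole reads, and a rescaling of libraries to their median of ratios. Deviations from the group means correlated at 0.109, 0.110 and 0.304 between libraries of the same number, which by the rule used (all above 0.1) pairs them. The pairing rests on this check alone, and knockout library 2 correlated better with control library 1 (0.291). The members, gene lists and tests were chosen with earlier results of these data known, and the promoter motifs with the promoters in view. From the efferocytosis list every gene past the threshold was to be named, and otherwise the 2 most abundant of each group, as for the marker lists, with *Gata6*, *Lyz2* and *Fcgr1*, and the 5 genes most like *Timd4* and *Mfge8*. Genes beyond this rule (*Havcr1*, *Tyro3*, *Itgb3*, *Adgrb1*, *Abca1*, *Pecam1*, *Maf*, *Retnlg*) were named after their values were seen. Promoters were taken from RefSeq (GRCm38.p6), matched by Entrez number for all 10 genes, and 1 promoter per gene served as the background.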

Additional observations from a re-analysis of the deposited data

How the results depend on the processing

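The number of genes called ran from 8 (without control library 2) to 1333 (without control library 3) when 1 library was left out, against 660 with all 6, and was 30 and 63 without knockout library 1 and knockout library 2. With all libraries kept the total stayed within 1.5 times, but the higher calls went from 232 to 141 with no filter and to 352 with the replicate block. Of the 10 genes, 2 were called, and this ran from 0 (without control library 2, where *Mfge8* and *Cd300lf* had unadjusted p of 9.94e-05 and 0.00115 from limma) to 5 (without control library 3, in which *Timd4*, *Stab1* and *Pros1*, the latter at -0.63, passed too). It was 1 without knockout library 1 or 2, where calls of all genes dropped too, and 4 with the replicate block. For the efferocytosis list the count of 13 ran from 0 to 24 over the same fits, with 1 without knockout library 1 and 5 without knockout library 2, and 0 of them lower in either. The causes were not tested, beyond the loss of a library. *Timd4* also passed with a pseudocount of 0.1 (log2 difference -4.00, adjusted p = 0.0458 from limma) and did not pass with voom (-4.37, adjusted p = 0.143). Reversals among the 10 genes occurred in *Pros1*, with 0.12 and 0.04 without control library 1 and control library 2. The replicate block changed the calls of *Timd4* and *Axl* and of no other of the 9 tested genes, and *Havcr2* was not in that fit. After the rescaling the median log2 difference of all genes moved from -0.11 to 0.02, and 51.7% of the calls were higher in place of 35.2%. The 10 genes kept their direction, with *Pros1* at -0.04. Limits of depth weigh on *Havcr2* and on *Timd4* in the knockout libraries, with 23 to 132 reads each.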
